A study of Mus musculus with 12 samples.

Results

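The 38 genes described here encode the TGF-beta and BMP signalling pathway. They were chosen by gene symbol from a fixed list, with no measured value in the rule. Earlier results of these data were known when the list was chosen. The list covers secreted ligands, their receptors, the Smad proteins inside the cell, the Id genes that BMP signalling switches on, secreted antagonists and the latent TGF-beta binding proteins. All 38 have a row in the table of 40690 gene identifiers, and 36 of them were high enough to test among 14336 tested genes. They were measured by RNA sequencing in right atria of mice, with 6 libraries labelled control and 6 labelled iNICD. In both groups doxycycline chow began when the mice were 2 to 3 months old and lasted 3 weeks, and the atria were collected with no period off the drug. The controls were littermates that ate the same doxycycline chow, so the groups differ by genotype and not by the drug. The name iNICD commonly stands for an inducible Notch intracellular domain, the active fragment of the Notch receptor. The labels do not name the promoter that drives it, the other alleles or the sex of the mice. They also do not say that each library is 1 animal, so the p-values measure the spread between these samples.

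In this pathway, TGF-beta, BMP and activin ligands bind a pair of type I and type II receptor kinases on the cell surface. The type I receptor then phosphorylates receptor Smads, which join Smad4 and enter the nucleus. Smad2 and Smad3 serve TGF-beta and activin receptors, while Smad1, Smad5 and Smad9 serve BMP receptors. In the heart the pathway is known for its part in valve and chamber development, in fibrosis and in endothelial cells.

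No member passed the test as higher in iNICD and 1 passed as lower, namely Id1, a direct target of BMP signalling. The test was limma on log2(CPM + 0.5), where CPM is a gene's read count per 1000000 reads of its library, with Benjamini-Hochberg adjustment over all tested genes and a threshold of 0.05. Over all tested genes, 4.87% were called higher and 1.84% lower, which makes 6.71% in either direction. That background is 698 genes higher and 264 lower, and median-of-ratios scaling gave 606 and 387. Of the members, 16 had a positive and 20 a negative log2 fold change, or 44.4% positive beside 61.3% of all tested genes. With median-of-ratios scaling the split was 11 and 25, or 30.6% beside 47.8%. Their median log2 fold change was -0.04, beside 0.05 for all tested genes, and the range ran from -0.50 for Id1 to 0.56 for Bmp5. At an unadjusted p under 0.05, 19.4% of the tested members passed, which is 7 genes, beside 18.8% of all tested genes. Of these 7, Tgfb3, Bmp4 and Smad3 were higher and Id1, Smad1, Smad7 and Smad9 lower. With edgeR's quasi-likelihood test on the reads, 1 member was lower and none higher, beside 2.73% and 4.43% of all genes. With DESeq2, 3 were lower and none higher, beside 4.11% and 5.86% of all genes. For 23 of the 36 tested members the 95% interval lay wholly within a 1.5-fold change in either direction, and for the other 13, such as Bmp5 and Inhbb, it reached past that. The intervals of 29 members crossed 0.

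**Figure D1:**
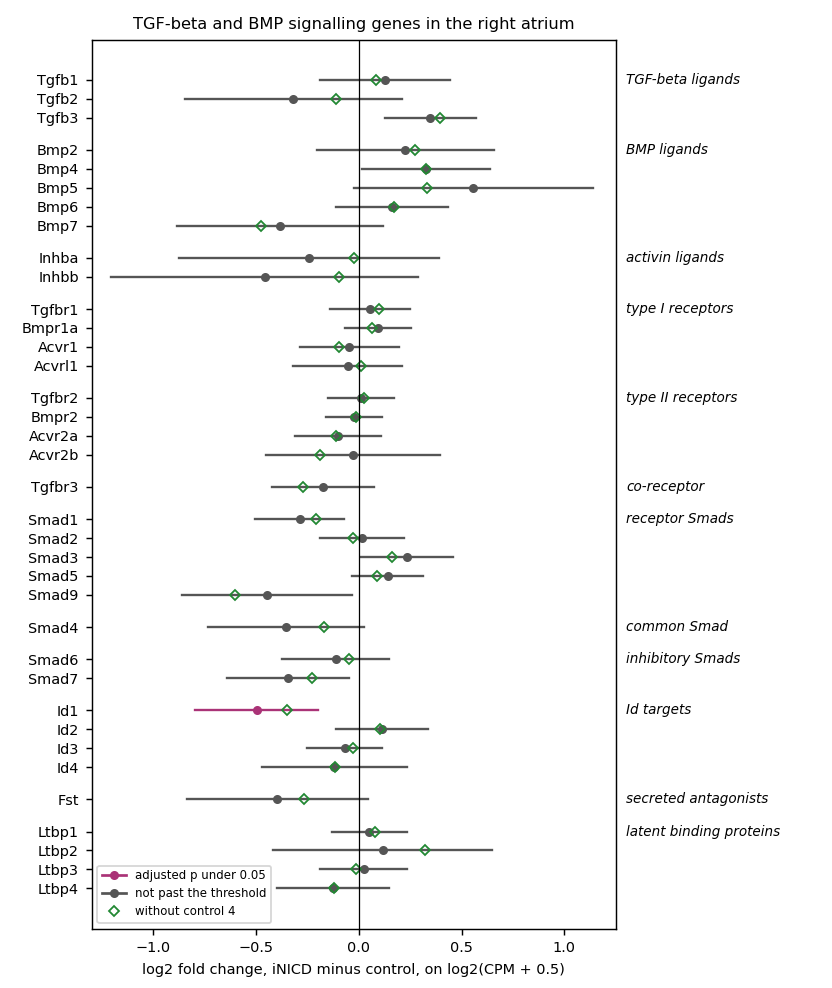
Log2 fold change (iNICD minus control, x axis) of the 36 tested members, grouped by role, with 95% intervals from limma as lines; open diamonds give the estimate without control 4. Id1 is the member past the threshold, and most intervals cross 0.

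In bulk tissue, fewer cells of a type and less RNA per cell cannot be told apart. Depth ran from 12007384 to 22700871 assigned reads. Notch1 gave a check of the labels, at 192 to 293 CPM in the control libraries and 3060 to 5360 CPM in the iNICD libraries. Of the atrial cardiomyocyte markers, 4 of 6 passed as lower in iNICD (Nppa, Myl7, Myl4 and Sln), with a summed level of 20150 to 26220 CPM in control and 8480 to 12060 CPM in iNICD. Of the macrophage markers, 4 of 6 passed as higher, with sums of 307.8 to 392.4 CPM in control and 376.8 to 536.7 CPM in iNICD. None of the 8 endothelial markers passed limma's threshold, and 1 of them, Pecam1, had an unadjusted p under 0.05. Their sums overlapped, at 1406 to 1866 CPM in control and 1310 to 1939 CPM in iNICD. Of the 7 fibroblast markers 1, Tcf21, passed as higher, with sums of 2257 to 3071 CPM and 2611 to 4452 CPM. Over all marker lists, 61 of 65 genes were tested, 7 passed as higher and 6 as lower. Those outside the lists above were Lbh and Cspg4, higher, and Cytl1 and Dbh, lower. The lymphatic marker Pdpn was listed at 0. The part of these markers in the members' values was not tested.

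A single library, control 4, stood apart. It was the highest of the 12 libraries for 12 members and the lowest for 5, which is 47.2% of the tested members, beside 45.5% of all tested genes. It also had the highest atrial marker sum (26220 CPM) and the highest blood marker sum (298.4 CPM, beside 52.61 to 180.2 CPM in the other controls). Library iNICD 4 was the lowest for 13 members, and it was the highest or lowest library for 38.9% of the tested members beside 18.5% of all tested genes. Without control 4, 3 members passed the test, Tgfb3 as higher and Smad9 and Id1 as lower, against a background of 8.47% of all tested genes. Xist, the RNA that marks the inactive X chromosome, was high (464 to 649 CPM) in 4 control and 3 iNICD libraries and low (7.07 to 13.5 CPM) in 2 control and 3 iNICD libraries. The low class held control 4 and control 6.

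**Figure D2:**
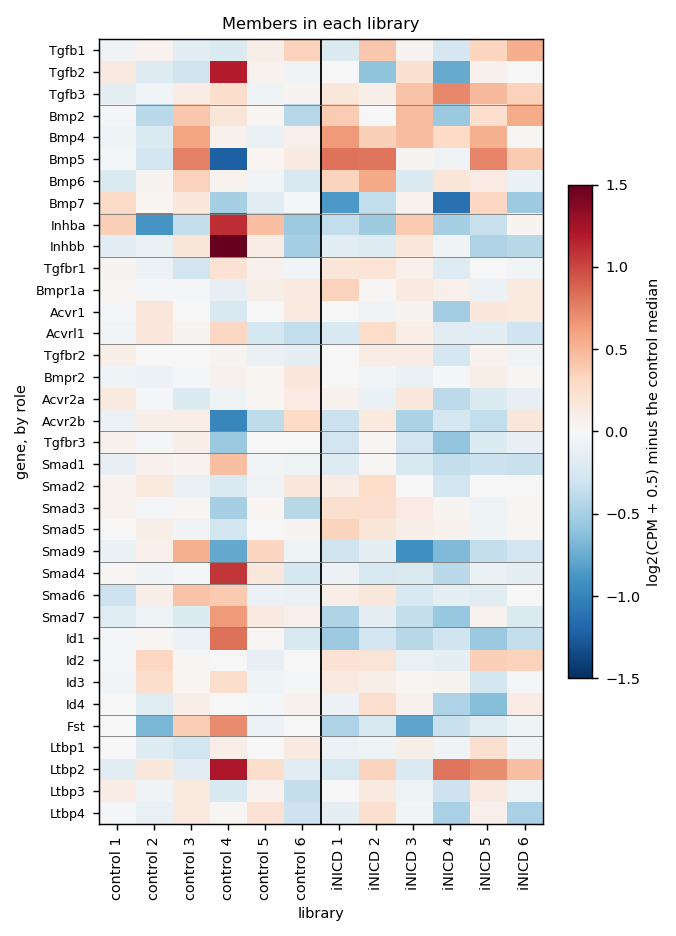
Level of each tested member (rows, by role) in each library (columns), as log2(CPM + 0.5) minus the median of the 6 control libraries; values beyond the ends of the scale take the end colour. Control 4 carries many of the darkest cells, in red for Inhbb, Ltbp2 and Tgfb2 and in blue for Bmp5.

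Among the ligands, Tgfb3 was the most abundant member ligand per length of transcript, and the 1 member ligand that passed the test in some of the alternative fits. Levels of different genes are compared here as CPM per kilobase of exon in the control libraries. Tgfb3 stood at 27.7 ± 2.92 CPM per kilobase (SD, n = 6), Bmp6 at 10.5 ± 1.62 and Tgfb2 at 4.67 ± 2.21. The Tgfb2 mean and SD include control 4, which lay well above the other controls. Bmp4 (2.65 ± 0.62) and Tgfb1 (2.32 ± 0.353) did not differ beyond their spread. Inhbb stood at 2.28 ± 2.16, a mean and SD that also include an outlying control 4. In CPM, Inhbb was 28.35 in control 4 and 4.33 to 7.24 in the other controls. Its place beside Bmp4 and Tgfb1 was not compared without control 4. Bmp5, Bmp2, Inhba and Bmp7 all lay lower, with control means from 0.315 to 0.988 CPM per kilobase.

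Tgfb3 encodes the TGF-beta ligand best known from palate fusion and heart valve cushions (ENSMUSG00000021253, chr12:86056745-86079041, minus strand, GENCODE annotation of GRCm38). In control libraries 1 to 6 its levels were 82.9, 88.9, 99.2, 110.1, 86.7 and 94.8 CPM. In iNICD libraries 1 to 6 they were 103.0, 97.95, 124, 152, 128 and 117 CPM. The iNICD libraries lay mostly above the controls, but the groups overlapped, because control 4 and control 3 were above the lowest iNICD libraries. The log2 fold change was 0.35 ± 0.10 (SE, limma, adjusted p = 0.057; exact two-sided permutation p = 0.013), which missed the threshold. Without control 4 it was 0.40 and passed, with limma's adjusted p of 0.019. Over the planned settings other than leaving out a library, its adjusted p ran from 0.0048 to 0.24. Within the high Xist libraries the log2 fold change was 0.27, and within the low Xist libraries 0.36, and neither passed. Tgfb1, the most studied isoform in fibrosis, was 11.7 ± 1.78 CPM in control and 13.01 ± 3.06 CPM in iNICD, with a log2 fold change of 0.13 (SE 0.15). Tgfb2, the third isoform, ran from 18.6 over a median of 23.0 to 52.75 CPM in control and from 13.3 over 22.9 to 26.9 CPM in iNICD. The medians of Tgfb2 were nearly equal and its negative log2 fold change of -0.32 moved to -0.11 without control 4.

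Of the 5 BMP ligands, 4 had a positive log2 fold change and none passed limma's threshold, with 1, Bmp4, at an unadjusted p under 0.05. Bmp4, a ligand needed for outflow tract and valve development, ran from 4.74 over a median of 5.59 to 8.65 CPM in control and from 5.68 over 7.61 to 9.01 CPM in iNICD. The groups overlapped, with control 3 among the iNICD libraries and controls 4 and 6 above the lowest of them. For Bmp4 the log2 fold change was 0.33 ± 0.15 (SE, limma, adjusted p = 0.24; exact permutation p = 0.056). Bmp5 had the largest positive estimate of the members, 0.56 ± 0.27 (SE), but ranged from 1.40 to 6.999 CPM in control and from 3.80 to 7.35 CPM in iNICD. Control 4 was the lowest Bmp5 library, and without it the log2 fold change was 0.33. Bmp6, a ligand made by endothelial cells that regulates iron through hepcidin in the liver, was 40.8 ± 6.33 CPM in control and 45.9 ± 9.17 CPM in iNICD. Bmp2 and Bmp7 were lower still, at 2.78 ± 0.731 and 1.27 ± 0.317 CPM in control.

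The start of Bmp4 is shown because it is the BMP ligand with the smallest p and because its window holds the letters CACGTG, a site class that the Notch targets Hes and Hey can bind. The window covers 250 bases before to 50 bases after the start in RefSeq's GRCm38.p6 table (chr14:46390620-46390919, minus strand), 5′ to 3′, with the matched letters in capitals.
Bmp4: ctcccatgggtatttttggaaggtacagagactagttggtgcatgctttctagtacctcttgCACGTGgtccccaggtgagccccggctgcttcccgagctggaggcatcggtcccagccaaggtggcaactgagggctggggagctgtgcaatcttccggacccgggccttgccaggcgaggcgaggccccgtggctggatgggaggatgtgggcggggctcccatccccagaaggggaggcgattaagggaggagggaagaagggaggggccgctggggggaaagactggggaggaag

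The activin subunit genes Inhba and Inhbb carried the widest spread. Inhbb ran from 4.33 over a median of 6.33 to 28.35 CPM in control and from 4.44 over 5.51 to 7.10 CPM in iNICD. The control mean was set by control 4 alone, and the other 5 controls lay between 4.33 and 7.24 CPM. Inhbb had a log2 fold change of -0.46 ± 0.35 (SE, limma, adjusted p = 0.54) and -0.09 without control 4. Inhba went from -0.24 to -0.02 on the log2 scale in the same step.

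**Figure D3:**
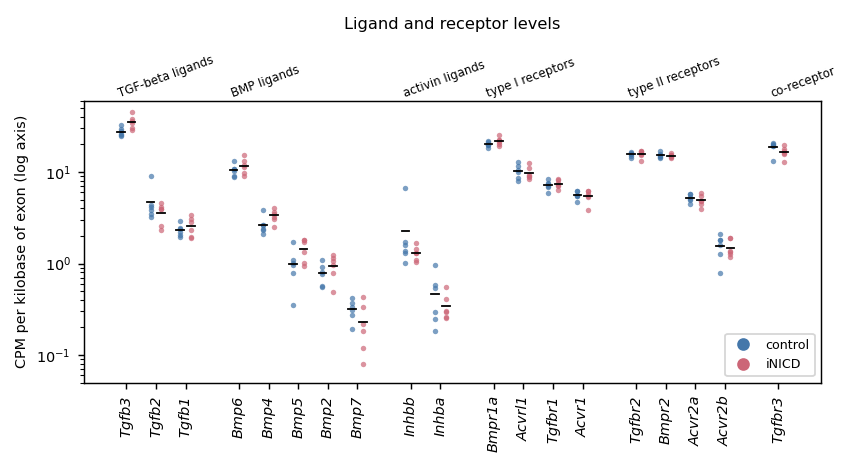
Level in CPM per kilobase of exon (log axis) of the tested ligands and receptors, with 1 point per library (blue control, red iNICD) and a black bar at the group mean. Tgfb3 leads the ligands at 27.7 CPM per kilobase in control, and the receptors span from 1.56 to 20.4.

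Receptor levels differed little between the groups. None of the 9 receptor and co-receptor genes passed with limma, edgeR or DESeq2, and none had an unadjusted limma p under 0.05. The 8 type I and type II receptors had log2 fold changes from -0.10 to 0.09. The most abundant per length in control were Bmpr1a, a type I receptor for BMP2 and BMP4, at 20.4 ± 1.28 CPM per kilobase, and the co-receptor Tgfbr3 at 18.7 ± 2.78. Tgfbr2 (15.6 ± 0.925) and Bmpr2 (15.3 ± 1.03), the type II receptors for TGF-beta and BMP, did not differ beyond their spread. Acvrl1, the endothelial type I receptor also named ALK1, stood at 10.2 ± 1.80 CPM per kilobase, and Acvr2b, an activin type II receptor, was lowest at 1.56 ± 0.466.

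Bmpr1a ran from 117.7 over a median of 128 to 140.3 CPM in control and from 120.9 over 137.9 to 162.3 CPM in iNICD. The groups overlapped over most of that range, with a log2 fold change of 0.09 ± 0.08 (SE). Acvr2a, an activin type II receptor, ran from 25.6 over 29.6 to 32.75 CPM in control and from 22.4 over 27.3 to 33.3 CPM in iNICD. Its log2 fold change was -0.10 ± 0.10 (SE), and the iNICD range enclosed the control range. Tgfbr3, which presents TGF-beta2 to the signalling receptors, ran from 86.3 over 127 to 136 CPM in control and from 84.1 over 107.3 to 129.4 CPM in iNICD. Control 4 was the only control below 124.7 CPM. Tgfbr3 had an estimate of -0.17 ± 0.12 on the log2 scale (SE, limma, adjusted p = 0.47), and without control 4 it was -0.27 (limma, adjusted p = 0.075).

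Among the 8 Smads none passed limma on all 12 libraries without covariates or weights. An unadjusted limma p under 0.05 was found for 4 of them, beside 19.4% of the tested members and 18.8% of all tested genes. On the same 12 libraries DESeq2 called Smad1 and Smad9 lower, array weights called Smad9 lower and the Xist covariate called Smad3 higher. Smad1, Smad9 and the inhibitory Smad7 had negative and Smad3 a positive log2 fold change by limma without them. The BMP receptor Smads had estimates of differing sign, since that of Smad5 was positive at 0.14 ± 0.08 (SE, limma, adjusted p = 0.38). The 95% interval of Smad5 ran from -0.031 to 0.312, and whether these Smads differ from each other was not tested.

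Smad9, a BMP receptor Smad (ENSMUSG00000027796, chr3:54755582-54801257, plus strand), was 27.3, 31.0, 42.8, 17.0, 36.9 and 27.9 CPM in control libraries 1 to 6. In iNICD libraries 1 to 6 it was 23.7, 26.5, 15.2, 18.4, 22.8 and 23.9 CPM. Every iNICD library lay below every control except control 4, which was among the lowest. The log2 fold change was -0.45 ± 0.19 (SE, limma, adjusted p = 0.22; exact permutation p = 0.071). Without control 4 it was -0.60 ± 0.15 (limma, adjusted p = 0.019; exact permutation p = 0.0043 over 462 relabellings), and the groups then did not overlap. It also passed with DESeq2 and with array weights, and its adjusted p over the planned settings other than leaving out a library ran from 0.033 to 0.59. Within the high Xist libraries (4 control, 3 iNICD) the Smad9 log2 fold change was -0.67, and within the low Xist libraries (2 control, 3 iNICD) -0.02. Neither passed. Control 4 is 1 of the 2 low Xist controls, and whether the classes differ was not tested.

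Smad3, the TGF-beta receptor Smad most tied to fibrosis (ENSMUSG00000032402, chr9:63646767-63757994, minus strand), ran from 59.0 over a median of 83.4 to 86.4 CPM in control. In iNICD it ran from 79.2 over 88.1 to 98.6 CPM. The low controls were control 4 and control 6, both in the low Xist class. The log2 fold change was 0.24 ± 0.10 (SE, limma, adjusted p = 0.24; exact permutation p = 0.071). With Xist as a covariate it was 0.28 and passed, with limma's adjusted p of 0.018, the lowest of its planned settings, which reached 0.36 (leave-one-out fits 0.19 to 0.42). It was 0.18 within the high and 0.45 within the low Xist libraries, neither of which passed. Smad2, its close relative, was 36.45 ± 3.80 CPM in control and 36.9 ± 4.66 CPM in iNICD, with a log2 fold change of 0.02.

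The starts of Smad9 and Smad3 are shown because these receptor Smads had estimates of opposite sign and both windows hold TGGGAA, the letters that the Notch partner RBPJ prefers. Smad9 also holds GGCGCC, letters found at sites of BMP-driven Smads. The windows are chr3:54755332-54755631 (plus strand) and chr9:63757945-63758244 (minus strand) of the same table, each 5′ to 3′ with matches in capitals.
Smad9: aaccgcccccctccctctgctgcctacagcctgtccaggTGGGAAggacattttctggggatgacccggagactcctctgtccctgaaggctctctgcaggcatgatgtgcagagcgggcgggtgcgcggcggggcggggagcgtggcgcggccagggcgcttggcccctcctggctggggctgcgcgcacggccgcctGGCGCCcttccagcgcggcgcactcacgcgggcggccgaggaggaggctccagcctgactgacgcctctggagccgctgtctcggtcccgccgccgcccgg
Smad3: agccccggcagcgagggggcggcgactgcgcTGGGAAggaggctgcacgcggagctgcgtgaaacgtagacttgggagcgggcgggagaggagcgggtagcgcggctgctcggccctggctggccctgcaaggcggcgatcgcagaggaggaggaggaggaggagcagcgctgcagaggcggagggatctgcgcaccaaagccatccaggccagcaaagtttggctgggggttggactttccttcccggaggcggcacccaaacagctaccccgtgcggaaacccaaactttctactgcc

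Windows of 27 members were present in the RefSeq table, as 33 windows, and Tgfb3, Tgfbr3, Bmp2, Bmp7, Acvrl1, Smad2, Smad4, Smad7, Id1, Nog and Fst were not matched. Searching both strands, TGGGAA (reverse TTCCCA) was present in 24.2% of the member windows and 25.6% of all 32851 windows. GGCGCC was present in 33.3% and 11.9%, and CACGTG in 9.09% and 7.15%. Ltbp4 and Smad5 each have overlapping windows that hold the same GGCGCC match, so those matches were counted more than once. The background was not matched for base composition, and the difference in shares was not tested. Within a window, no match overlapped another. A match describes letters in a window and not a bound site.

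Smad1, a BMP receptor Smad (ENSMUSG00000031681), ran from 29.2 over a median of 31.9 to 43.7 CPM in control and from 24.75 over 26.35 to 32.3 CPM in iNICD. The groups overlapped through iNICD 2. The log2 fold change was -0.29 ± 0.10 (SE, limma, adjusted p = 0.11; exact permutation p = 0.011), and over the planned settings its adjusted p ran from 0.043, with DESeq2, to 0.32. Without control 4 it was -0.21 (limma, adjusted p = 0.14). Smad7, an inhibitory Smad that blocks TGF-beta and BMP receptors, ran from 88.0 over 101.6 to 158.6 CPM in control and from 68.1 over 83.1 to 105.1 CPM in iNICD. Its log2 fold change was -0.34 ± 0.14 (SE, limma, adjusted p = 0.18; exact permutation p = 0.041), and control 4 was the highest library. The Smad7 estimate without control 4 was -0.23 (limma, adjusted p = 0.22; exact permutation p = 0.087). Smad4, the common partner of the receptor Smads, ran from 101.1 over 121.6 to 256.8 CPM in control and from 92.05 over 107.3 to 114.4 CPM in iNICD. Its estimate of -0.35 ± 0.18 (SE, limma, adjusted p = 0.31) moved to -0.17 without control 4. The inhibitory Smad6, mostly known from endothelial cells and BMP signalling, was 149 ± 30.7 CPM in control and 136 ± 15.4 CPM in iNICD.

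**Figure D4:**
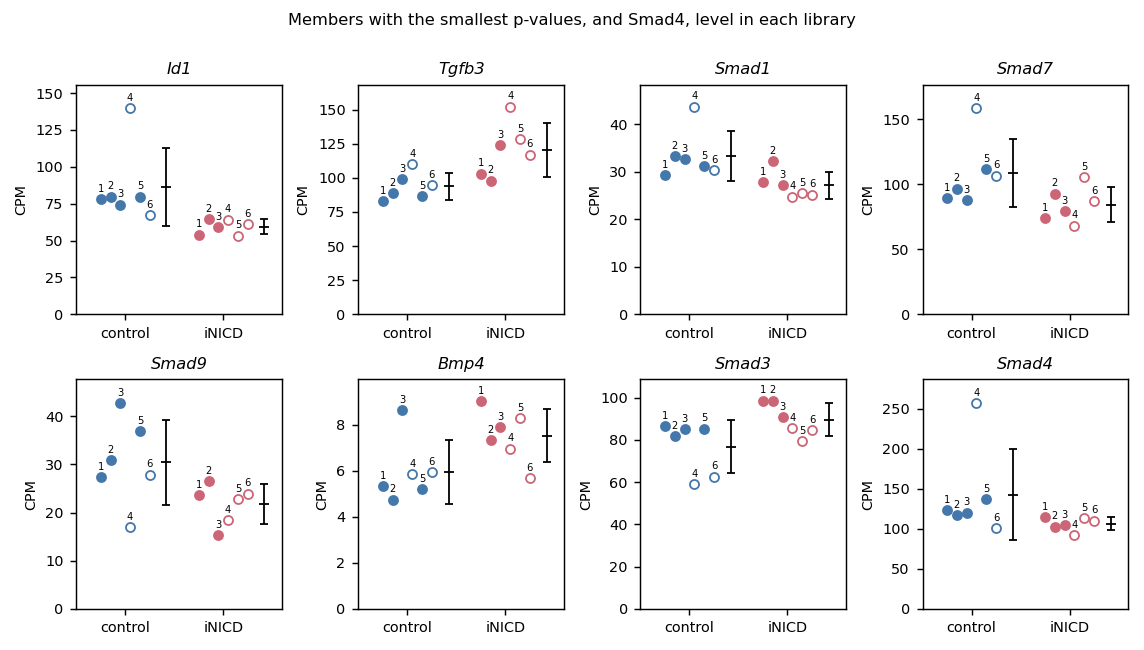
Level in CPM of 8 members in each of the 6 control and 6 iNICD libraries, numbered by library; filled points are high Xist libraries and open points low Xist libraries, and the bars give the mean and SD. All 6 iNICD values of Id1 lie below all 6 controls, while the other panels overlap.

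Id1 encodes an inhibitor of differentiation, a helix-loop-helix protein without a DNA-binding domain and a standard readout of BMP signalling (ENSMUSG00000042745, chr2:152736251-152737410, plus strand). Id1 was 78.0, 79.8, 74.4, 139.7, 79.8 and 67.5 CPM in control libraries 1 to 6. In iNICD libraries 1 to 6 it was 54.1, 64.7, 59.2, 64.2, 53.4 and 61.4 CPM. Every iNICD library lay below every control, and 4.59% of all tested genes had groups that did not overlap. Id1 was the 1 member without overlap. Its log2 fold change was -0.50 ± 0.14 (SE, limma, adjusted p = 0.046; exact permutation p = 0.0022, the smallest that 924 relabellings can give).

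Control 4 raised the control mean of Id1, which was 86.5 ± 26.5 CPM with it and 75.9 ± 5.18 CPM without. Without control 4 the log2 fold change was -0.35 ± 0.07 (SE, limma, adjusted p = 0.0068), and the spread was smaller. Without control 4, 2 members had no overlap, Id1 and Smad9, beside 6.45% of all tested genes. Of the 12 fits that left out 1 library, 2 kept the call, those without control 4 and without control 6, and the adjusted p ranged from 0.0068 to 0.11. The Id1 call was also lost with no filter on low genes (limma, adjusted p = 0.053), with median-of-ratios scaling (0.063), with the abundant RNAs Gm42418 and Rn7sk as a covariate (0.077) and without the 3 libraries rich in them (0.18). It held with edgeR (adjusted p = 0.048) and DESeq2 (adjusted p = 0.011). Within the high Xist libraries Id1 fell by 0.40 on the log2 scale (limma, adjusted p = 0.010), and the low Xist libraries gave -0.70 (limma, adjusted p = 0.60). The controls of the low class were control 4, at 139.7 CPM, and control 6, at 67.5 CPM. The iNICD libraries of that class lay between 53.4 and 64.2 CPM. With fewer libraries a side, 6 members had no overlap within the high and 7 within the low Xist libraries, beside 22.1% and 22.8% of all tested genes.

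The other Id genes did not pass, and none of the 3 had an unadjusted limma p under 0.05. Id2 was 27.1 ± 2.95 CPM in control and 29.5 ± 4.44 CPM in iNICD, and Id3 was 103 ± 11.25 and 97.9 ± 9.25 CPM. Id4, the least abundant, was 1.95 ± 0.161 and 1.81 ± 0.527 CPM. Per length, Id1 (74.6 ± 22.8 CPM per kilobase) and Id3 (57.4 ± 6.28) led the Id genes in control. The SD of Id1 exceeds the gap between them, but it includes control 4. In CPM that SD was 26.5 with control 4 and 5.18 without. Id1 and Id3 were not compared library by library. The windows of Id2 and Id4 hold the BMP Smad letters GGCGCC, and that of Id2, the more abundant of these, is shown with the letters in capitals (chr12:25096043-25096342, minus strand, 5′ to 3′).
Id2: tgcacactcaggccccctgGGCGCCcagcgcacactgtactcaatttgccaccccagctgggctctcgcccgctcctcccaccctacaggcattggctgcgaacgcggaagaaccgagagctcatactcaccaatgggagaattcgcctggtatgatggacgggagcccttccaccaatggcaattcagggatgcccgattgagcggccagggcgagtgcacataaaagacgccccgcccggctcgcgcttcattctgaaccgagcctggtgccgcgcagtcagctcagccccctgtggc

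Across libraries within a group, no relation of Id1 to other BMP-responsive members passed a test. Of 12 relations with Id2, Id3, Id4, Smad6, Smad7 and Smad9, each over 6 libraries, the smallest adjusted p was 0.38 for Pearson's r and 0.66 for Spearman's rho, by exact permutation of pairings. The highest r was with Smad7 in control (r = 0.86, rho = 0.54, raw permutation p = 0.096 and 0.30), and without the 2 libraries farthest from the Id1 median it was 0.71.

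Of the secreted antagonists, Fst alone could be tested. Fst encodes follistatin, which traps activins, and ran from 1.415 over a median of 2.57 to 4.52 CPM in control and from 1.28 over 2.01 to 2.445 CPM in iNICD. The ranges overlapped, with a log2 fold change of -0.40 ± 0.21 (SE, limma, adjusted p = 0.33). Nog, which encodes the BMP trap noggin, had 12 reads over the controls and 4 over the iNICD libraries, and Grem1, which encodes the BMP trap gremlin, had 0 reads in all 12. A count of 0 allows up to 0.132 to 0.250 CPM in these libraries, counting error only.

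The latent TGF-beta binding proteins hold the growth factor in the matrix, and none of the 4 passed or had an unadjusted limma p under 0.05. Ltbp4 was the most abundant member per length, at 99.2 ± 12.5 CPM per kilobase in control. In CPM, Ltbp4 ran from 516.7 over a median of 641.9 to 743.3 in control and from 458.5 over 605.6 to 759.5 in iNICD. The groups overlapped, with a log2 fold change of -0.13 ± 0.13 (SE). Ltbp1 (111 ± 12.3 and 115 ± 10.8 CPM) and Ltbp3 (114 ± 15.5 and 115 ± 12.9 CPM) differed by less than their spread. Ltbp2 was low, at 5.34 to 14.7 CPM in control, where control 4 was highest.

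The wider pathway gave a few larger changes than the members. Of 99 further pathway genes found in the table, 80 were tested. Of these, 1 passed as higher and 3 as lower, beside the same background shares of 4.87% and 1.84%. An unadjusted limma p under 0.05 was found for 12 of the 80, or 15.0%, beside 18.8% of all tested genes. Gdf15, a stress-induced distant member of the TGF-beta family, ran from 0.315 over a median of 0.538 to 1.72 CPM in control and from 3.09 over 4.14 to 6.31 CPM in iNICD. Its libraries did not overlap, and its log2 fold change was 2.04 ± 0.24 (SE, limma, adjusted p = 6.9e-05). Control 4 was the only control at 1 CPM or more, so Gdf15 passed the filter for testing only through its iNICD libraries. Its reads summed to 68 over the controls and 364 over the iNICD libraries. The limma fit with no filter on low genes also called it higher. Inha, the inhibin alpha subunit that opposes activin, ran from 11.3 over 17.3 to 19.1 CPM in control and from 6.515 over 8.23 to 10.95 CPM in iNICD. Inha also had no overlap, and its log2 fold change was -0.88 ± 0.14 (SE, limma, adjusted p = 0.0012). Hamp, the iron hormone hepcidin and a BMP target in the liver, ran from 16.4 over 38.5 to 73.8 CPM in control and from 6.24 over 7.21 to 19.6 CPM in iNICD. Its log2 fold change was -1.98 (limma, adjusted p = 0.0080), with overlap through a single iNICD library. Itgb6, the integrin subunit that activates latent TGF-beta, ran from 9.05 over 19.1 to 21.5 CPM in control and from 8.70 over 9.78 to 10.5 CPM in iNICD, with a log2 fold change of -0.76 (limma, adjusted p = 0.014). Control 4 was the 1 control at the level of the iNICD libraries of Itgb6.

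Bmp10, an atrial BMP ligand, was the most abundant ligand of either list, at 368 CPM per kilobase in control. It ran from 1071 over a median of 1230 to 3158 CPM in control and from 723 over 771 to 1147 CPM in iNICD, with overlap. Its log2 fold change was -0.85 ± 0.25 (SE, limma, adjusted p = 0.064; without control 4, adjusted p = 0.036). It is also on the list of atrial markers, of which Nppa, Myl7, Myl4 and Sln were lower, and the part of those markers in its value was not tested. Bambi, a decoy receptor that dampens BMP and TGF-beta signals, was 49.99 ± 10.9 CPM in control and 35.45 ± 6.155 CPM in iNICD. It missed the threshold in the fit of all libraries (limma, adjusted p = 0.10) and passed without control 4 (limma, adjusted p = 0.0016). Without control 4, 8 of the 80 passed, 2 higher and 6 lower, beside 8.47% of all tested genes in either direction.

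**Figure D5:**
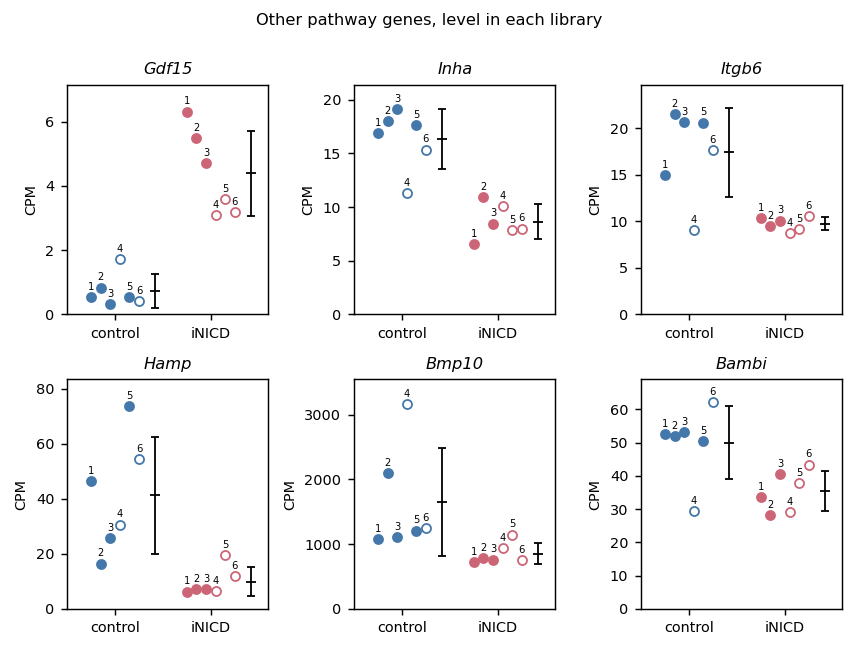
Level in CPM of 6 further pathway genes in each control and iNICD library, numbered by library, with bars for the mean and SD and open points for low Xist libraries. Gdf15 and Inha separate the groups fully, while the other panels overlap. Gdf15 passed the filter for testing only through its iNICD libraries.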

How the data were processed

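Total RNA of right atria was sequenced in 6 control and 6 iNICD libraries. The authors deposited one table of gene values in CPM, reads of a gene per 1000000 reads; per the submitters' processing notes, STAR 2.4.0b and featureCounts were used, while no source used here gives the genome build or the strand setting. Dividing each value by the value of 1 read gave whole reads for 100.0% of values (tolerance 0.001 reads), so depth was known. Of 41264 rows, 574 repeat an identifier with equal values and were kept once. Without strand, reads from a gene and an antisense partner cannot be told apart.

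A gene was tested when 6 or more of the 12 libraries reached 1 CPM. The test was limma 3.58.1 (R 4.3.3) with a mean trend and robust variance estimation, on log2(CPM + 0.5), a scale that understates changes of low genes. The Benjamini-Hochberg adjustment covered all 14336 tested genes. Single members also had an exact two-sided permutation test over 924 relabellings. The alternatives were pseudocounts 0.1 and 2, other filters, scalings, weights, covariates and thresholds, the replicate number as a block, each library left out, and edgeR 4.0.16 and DESeq2 1.42.0 on the recovered reads; the fits within high and low Xist libraries were added after seeing the data. On simulated data with 14228 tested genes, limma recovered 50% of 1.5-fold and 96% of 2-fold changes, with 4.95% of its calls false. The simulation used the control means with a spread set by mean level, and changed only genes above a minimum mean level. It held no outlying library such as control 4, so these rates may not hold for the measured libraries.

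The members and gene lists were chosen with earlier results of these data known. The text names every member called or without overlap, the 6 with the smallest p, the member with the smallest p in each role, and called genes of the other lists; Smad3, Bambi, Bmp10 and the further members given in brief were named after their values were seen. Gene spans and exon lengths are from GENCODE and promoter windows from RefSeq, both for GRCm38. No pair of libraries within a group agreed within sampling noise (lowest chi-square over its degrees of freedom, 9.22). Of the further pathway list, Gdf1 was not found by symbol, and the entry Arkadia is another name of Rnf111, which is on the list.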

Additional observations from a re-analysis of the deposited data

Results flagged for a closer look

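A library far from the other 5 of its group was found in 12 of 80 groups examined, over the tested members and the 4 called further pathway genes, and 9 of the 12 were control 4. A rate of about 1 in 20 would apply to independent groups, but these groups share the same 12 libraries, so it gives no test here. The share of such groups over all tested genes was not counted. Control 4 was the highest or lowest library for 47.2% of the tested members and 45.5% of all tested genes. Control 4 was the highest control for Tgfb2 (52.75 CPM, the others 18.6 to 25.1), Inhbb (28.35 CPM, the others 4.33 to 7.24), Smad1 (43.7 CPM, the others 29.2 to 33.3) and Smad4 (256.8 CPM, the others 101.1 to 137.1). It was also the highest for Smad7 (158.6 CPM, the others 88.0 to 111.4), Id1 (139.7 CPM, the others 67.5 to 79.8), Ltbp2 (14.7 CPM, the others 5.34 to 7.39) and Gdf15 (1.72 CPM, the others 0.315 to 0.832). It was the lowest control for Tgfbr3 (86.3 CPM, the others 124.7 to 136). The remaining cases were Bmp4 in control 3 (8.65 CPM, the others 4.74 to 5.93), Id2 in control 2 (32.9 CPM, the others 24.2 to 26.7) and Acvr1 in iNICD 4 (18.4 CPM, the others 25.86 to 29.85).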

How the results depend on the processing

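No setting tried here called more than 2 members higher or 3 lower, and the median log2 fold change of the members was negative in all of them except the high Xist libraries (0.018). Leaving out 1 library gave 0 to 1 members higher, 0 to 2 lower and 1 to 2 without overlap, 458 to 782 of all genes higher and 186 to 432 lower, and 1 to 2 further pathway genes higher and 3 to 6 lower. Array weights, the replicate block and a threshold of 0.1 called 1 member higher, and the Xist covariate 2. No member was lower with no filter, median-of-ratios scaling, the Gm42418 and Rn7sk covariate, without the 3 libraries rich in those RNAs, at a threshold of 0.01 or in the low Xist libraries, against 2 with array weights and 3 with DESeq2; the cause was not tested. Members without overlap numbered 6 in the high and 7 in the low Xist libraries, beside 22.1% and 22.8% of all tested genes, with fewer samples. Over all genes, 378 were higher and 145 lower without the 3 libraries, 314 and 115 at a threshold of 0.01, and 36 and 1 in the low Xist libraries. Lower calls numbered 407 with quantile normalization, 552 with array weights, 587 with DESeq2 and 401 at a threshold of 0.1. Further pathway genes called higher numbered 0 at a mean of 5 CPM, a filter that left Gdf15 untested, and 0 in the low Xist libraries. They numbered 2 with array weights, the replicate block, the Xist covariate and a threshold of 0.1, and 3 with DESeq2. Those lower numbered 0 in the low Xist libraries, 5 with array weights, the replicate block and edgeR, and 6 with DESeq2.

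The replicate numbers were not taken to pair the libraries, since only 4 of 6 same-numbered pairs correlated over 0.1 (range -0.006 to 0.325); 3 of 6 numbers matched best with themselves, a hint from the data and not the design. With the block, 1 member was higher (Tgfb3) and 1 lower. Apart from thresholds and leaving out a library, the Id1 call held with 10 of 14 other planned settings and the Itgb6 call with 13 of 14. Of the 12 planned fits that left out 1 library, the Id1 call held in 2 and the Itgb6 call in 12.

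Estimates near 0 changed sign, none of them called. In the high Xist libraries these were Acvr2a (0.056), Acvrl1 (0.072), Id3 (0.039), Id4 (0.105), Ltbp2 (-0.064) and Ltbp3 (-0.044). In the low Xist libraries they were Acvr2b (0.185), Ltbp1 (-0.071), Smad2 (-0.071), Tgfbr1 (-0.166) and Tgfbr2 (-0.035). Median-of-ratios scaling gave Ltbp1 -0.005, Ltbp3 -0.034, Smad2 -0.041, Tgfbr1 -0.004 and Tgfbr2 -0.047, and quantile normalization gave Ltbp3 -0.022, Smad2 -0.040 and Tgfbr2 -0.036. With edgeR they were Ltbp1 -0.005, Ltbp3 -0.034, Smad2 -0.037, Tgfbr1 -0.011 and Tgfbr2 -0.044, and with DESeq2 Ltbp1 -0.005, Ltbp3 -0.034, Smad2 -0.038, Tgfbr1 -0.012 and Tgfbr2 -0.044. Array weights gave Bmpr2 0.006, Ltbp3 -0.038, Smad2 -0.003 and Smad6 0.026. The Gm42418 and Rn7sk covariate gave Acvr2b 0.023 and Tgfbr2 -0.007, and leaving out the 3 libraries gave Acvr2b 0.144, Ltbp1 -0.072, Smad6 0.039 and Tgfbr2 -0.029. Leaving out 1 library gave ranges of -0.097 to 0.050 for Acvr1, -0.190 to 0.064 for Acvr2b, -0.126 to 0.012 for Acvrl1, -0.042 to 0.010 for Bmpr2, -0.037 to 0.079 for Ltbp3, -0.036 to 0.075 for Smad2 and -0.015 to 0.063 for Tgfbr2.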
